A study of Homo sapiens with 9 samples.

Results

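The mitochondrial ribosomal protein genes are the nuclear genes whose symbols begin with MRPL or MRPS, for the large and the small subunit of the mitochondrial ribosome. A gene was counted as a member when it had a protein_coding transcript and a symbol made of MRPL or MRPS, a number and at most 1 further letter. This gave 78 members, 49 of the large and 29 of the small subunit, out of 58219 genes in the files. The rule used no measured value, though earlier results of these data were known when the members were chosen. They were followed in RNA-seq libraries of MDA-MB-231, an established human breast cancer cell line that lacks oestrogen receptor, progesterone receptor and HER2 amplification. The 9 libraries formed 3 groups of 3. The shAPT1 cells carried a lentiviral short hairpin RNA against APT1 and had been selected with puromycin. The APT1wt cells carried a lentivirus expressing wild-type APT1. The Control cells carried a lentivirus with a scramble RNA. The 3 groups share the parent line and a lentiviral infection. The labels mention puromycin for the knockdown alone, and they leave it unsaid whether replicates stem from separate infections, clones or cultures. The p-values therefore measure spread between these libraries, which may be technical.

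APT1, the product of LYPLA1, is a thioesterase that takes palmitate off cysteines of proteins. The mitochondrial ribosome makes the few proteins encoded by mitochondrial DNA, all of them subunits of the respiratory chain and ATP synthase. Its RNAs come from mitochondrial DNA, while all of its proteins are encoded in the nucleus, made in the cytosol and imported. Some of these proteins have bacterial counterparts, and others are found only in mitochondrial ribosomes. The large subunit joins amino acids into the chain, and the small subunit reads the mRNA.

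The libraries held 12381931 to 18667383 estimated reads, of which the members took 0.412% to 0.445%. All 78 members were among the 15233 genes with enough reads to be tested, and the lowest count of any member in any library was 157 reads. LYPLA1 itself stood at 38.2, 30.5 and 36.7 TPM (reads per transcript length, scaled to the same total in each library) in shAPT1, at 169, 171 and 170 TPM in APT1wt and at 87.1, 92.7 and 80.5 TPM in Control. Its log2 fold change on estimated reads was −1.29 ± 0.07 (SE) in shAPT1 against Control and 0.60 ± 0.06 in APT1wt against Control (edgeR quasi-likelihood test, adjusted p = 2.0e-08 and 1.1e-05). The markers of the line VIM, CD44 and EGFR summed to 2974 to 3108 TPM in shAPT1, 2590 to 2776 TPM in APT1wt and 2911 to 3350 TPM in Control. In shAPT1 CD44 was lower (log2 fold change −0.66 ± 0.08, adjusted p = 2.7e-05, edgeR) and EGFR higher (0.33 ± 0.08, adjusted p = 0.0058), and in APT1wt VIM was lower (−0.25 ± 0.06, adjusted p = 0.0082). The 3 luminal epithelial markers summed to 19.2 to 22.4 TPM in shAPT1, 15.8 to 19.2 TPM in APT1wt and 19.3 to 22.2 TPM in Control, and CDH1 among them, at 0.791 ± 0.45, 1.30 ± 1.3 and 0.775 ± 0.54 TPM, was called higher in both lines on reads (1.04 ± 0.34 and 1.12 ± 0.34, adjusted p = 0.038 and 0.027). The 4 leukocyte markers summed to at most 1.14 TPM in any library, the 3 endothelial markers to at most 1.25 TPM and the 3 fibroblast markers to 6.77 to 10.3 TPM in shAPT1, 6.05 to 8.07 TPM in APT1wt and 4.72 to 5.96 TPM in Control, with COL1A1 called higher in both lines (0.51 ± 0.13 and 0.54 ± 0.13, adjusted p = 0.0094 and 0.0076). The part of these marker differences in the results was not tested.

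The promoters of these genes are known for sites of NRF1, of the ETS factor GABP and of YY1, and they often face the promoter of another gene. Promoter windows from 250 bases before to 50 after the start (RefSeq, GRCh38.p14) were found for 69 of the 78 members. The letters of an ETS core (CCGGAAG, on either strand, as for every motif here) stood in the windows of 43.5% of these members, against 12.2% of all 27305 genes with a window and 22.6% of the 9904 tested protein-coding genes. A YY1 core (ATGGCGG) stood in 34.8% of the members, 6.66% of all genes and 12.6% of the tested protein-coding genes. These letters begin with ATG and the windows run 50 bases past the start, so a match may include the start codon. The part of such matches in the share was not tested. An NRF1 core (TGCGCA) stood in 21.7% of the members, 9.76% of all genes and 16.0% of the tested protein-coding genes. An E-box (CACGTG) was in 13.0% of the members and 12.5% of the tested protein-coding genes, and an SP core (GGGCGG) in 60.9% and 77.4%. Each motif was searched on its own, so matches of different motifs may overlap, and a match is a description of letters and not a bound site. The windows below are examples and do not stand for all members. Of the genes shown, MRPL46 passed in no comparison. The window of MRPL11, a called member not shown, holds none of these motifs. The windows are written 5′ to 3′ on the strand of the gene, with NRF1, ETS and YY1 cores in capitals. MRPL57 lies at chr13:21176408-21176707 (plus strand), MRPL18 at chr6:159789562-159789861 (plus), MRPL17 at chr11:6683291-6683590 (minus) and MRPL46 at chr15:88467339-88467638 (minus).
MRPL57: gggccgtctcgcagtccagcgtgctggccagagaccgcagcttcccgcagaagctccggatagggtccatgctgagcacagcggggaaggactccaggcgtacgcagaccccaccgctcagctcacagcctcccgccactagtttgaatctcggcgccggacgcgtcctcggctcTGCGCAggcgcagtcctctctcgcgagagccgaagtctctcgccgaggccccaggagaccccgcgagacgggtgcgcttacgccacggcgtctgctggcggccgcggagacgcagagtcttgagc
MRPL18: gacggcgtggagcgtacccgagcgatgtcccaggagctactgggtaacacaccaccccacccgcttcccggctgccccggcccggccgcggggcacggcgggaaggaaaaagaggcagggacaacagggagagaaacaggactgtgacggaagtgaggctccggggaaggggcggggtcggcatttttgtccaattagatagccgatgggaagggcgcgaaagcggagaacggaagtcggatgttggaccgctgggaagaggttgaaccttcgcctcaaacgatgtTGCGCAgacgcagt
MRPL17: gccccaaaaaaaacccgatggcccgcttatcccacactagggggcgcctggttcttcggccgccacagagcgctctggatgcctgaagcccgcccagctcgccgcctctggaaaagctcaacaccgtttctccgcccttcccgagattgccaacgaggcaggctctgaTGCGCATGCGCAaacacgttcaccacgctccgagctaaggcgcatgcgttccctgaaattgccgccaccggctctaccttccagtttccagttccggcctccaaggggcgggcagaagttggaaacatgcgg
MRPL46: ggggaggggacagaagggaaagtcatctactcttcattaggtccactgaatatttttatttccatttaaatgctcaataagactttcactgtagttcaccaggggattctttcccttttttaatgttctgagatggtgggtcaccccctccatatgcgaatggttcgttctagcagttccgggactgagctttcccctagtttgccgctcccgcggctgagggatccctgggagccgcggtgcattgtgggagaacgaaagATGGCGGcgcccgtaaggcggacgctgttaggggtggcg
The MRPL57 and MRPL18 windows hold 1 NRF1 core each, shown because both genes face a partner that changed with them. The MRPL17 window holds 2 NRF1 cores side by side and belongs to a member that fell in APT1wt alone of the comparisons with Control. The MRPL46 window holds a YY1 core. By GENCODE 29 it also contains the start of MRPS11, 34 bases from that of MRPL46 on the other strand, whereas the RefSeq start of MRPS11 lies beyond it.

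The members were expressed well above the typical gene. The median member had 77.6 TPM in Control, a level above that of 83.7% of the tested protein-coding genes, whose median was 19.2 TPM. The lowest member in Control still stood above 45.9% of them. Members of the large subunit had a median of 81.2 TPM in shAPT1, 76.0 TPM in APT1wt and 84.8 TPM in Control, and members of the small subunit 69.8, 74.0 and 71.0 TPM in the same groups. The proteins are present once per ribosome with few exceptions, yet in Control the levels of their mRNAs ran from 18.4 to 259 TPM in the large and from 16.5 to 240 TPM in the small subunit.

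MRPL33, a small protein with a bacterial counterpart, had the highest mean level of the large subunit over all libraries, with 238, 200 and 224 TPM in shAPT1, 173, 208 and 218 TPM in APT1wt and 254, 260 and 262 TPM in Control. MRPL51 averaged 188 ± 21 TPM in shAPT1, 178 ± 2.6 TPM in APT1wt and 185 ± 20 TPM in Control (SD, n = 3 each), and MRPL52 173 ± 4.0, 201 ± 7.5 and 156 ± 14 TPM in the same groups. In the small subunit MRPS24 led, with 204, 198 and 200 TPM in shAPT1, 225, 219 and 226 TPM in APT1wt and 277, 228 and 217 TPM in Control. MRPS2 and MRPS10 came next over all libraries, at 129 ± 16, 144 ± 7.9 and 180 ± 5.9 TPM for MRPS2 and at 120 ± 8.5, 128 ± 1.7 and 114 ± 4.6 TPM for MRPS10 in shAPT1, APT1wt and Control. At the low end, MRPL44, MRPL50 and MRPL40 had 20.4 ± 2.0, 19.8 ± 3.3 and 20.6 ± 0.44 TPM in shAPT1, 20.5 ± 0.52, 17.9 ± 0.83 and 17.1 ± 0.65 TPM in APT1wt, and 18.4 ± 0.26, 19.7 ± 2.7 and 19.5 ± 1.8 TPM in Control, so these neighbours in the order did not differ beyond their spread in shAPT1 and Control. MRPS21 had the lowest mean over all libraries, with 16.8 ± 0.30 TPM in shAPT1, 18.4 ± 1.2 TPM in APT1wt and 16.5 ± 0.84 TPM in Control, below MRPS17 (27.8 ± 0.89, 22.7 ± 1.5 and 28.8 ± 1.4 TPM) and MRPS14 (31.3 ± 2.0, 33.2 ± 3.4 and 27.0 ± 4.3 TPM).

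**Figure D1:**
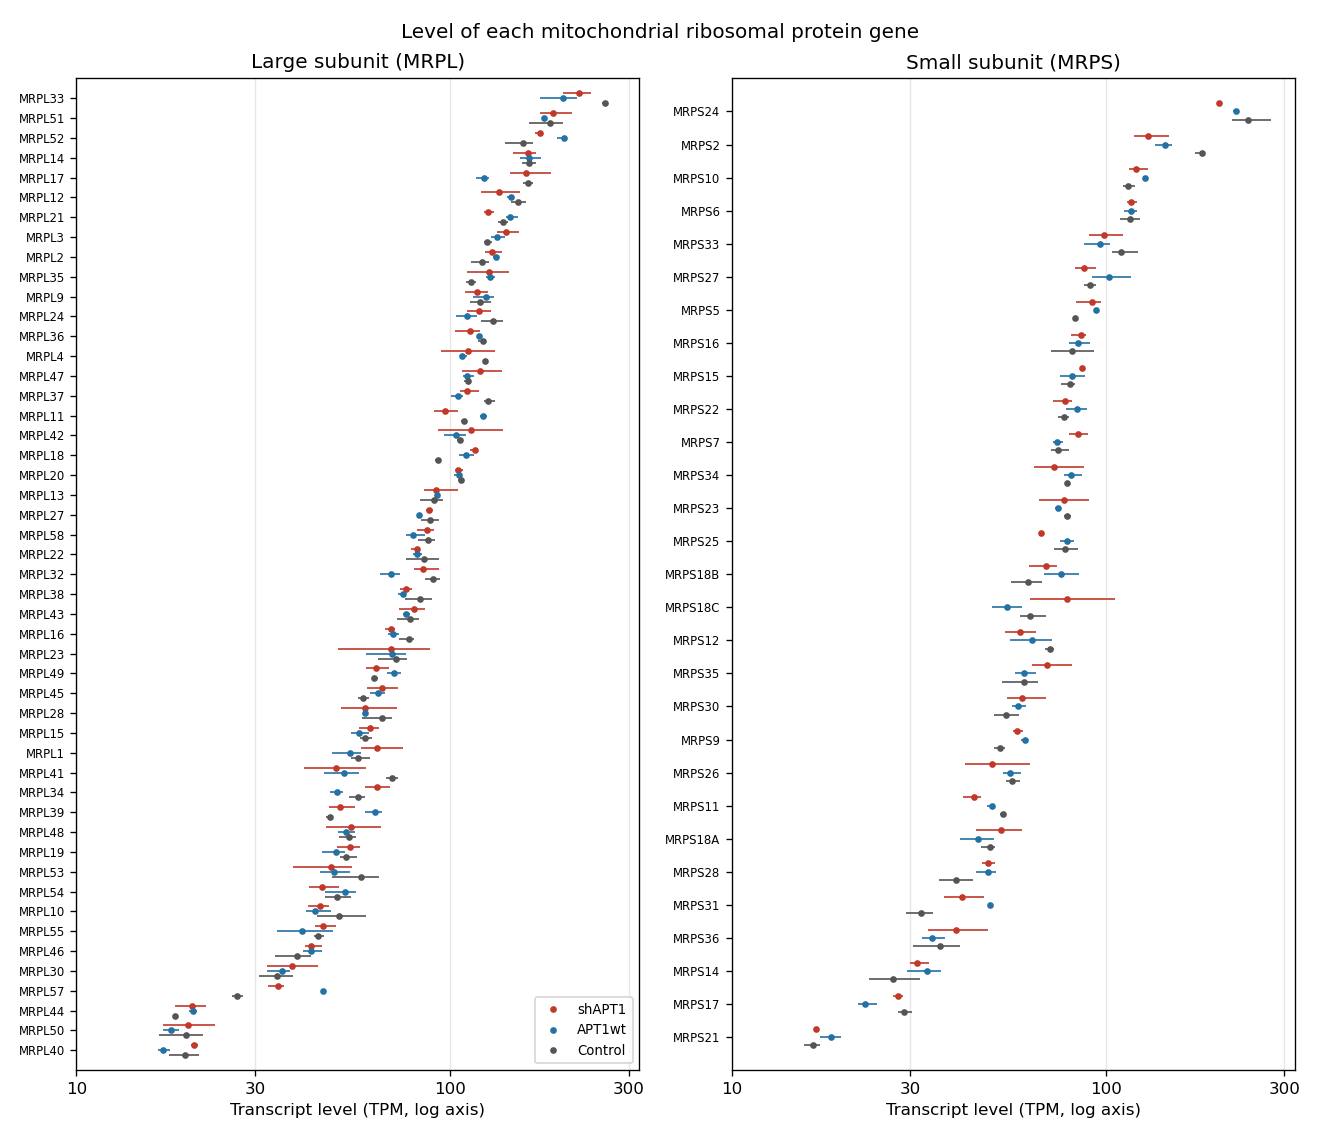
Level of each member in TPM (log axis), with members of the large subunit on the left and of the small subunit on the right, ordered by their mean over all libraries; points are means of 3 libraries and lines run from the lowest to the highest. Levels run from 16.5 TPM for MRPS21 in Control to 259 TPM for MRPL33 in Control, and the 3 groups of a gene lie close together compared with the distance between genes.

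The subunits as wholes were close to equal among the groups. Summed over its 49 genes, the large subunit had 4356 ± 152 TPM in shAPT1, 4296 ± 23 TPM in APT1wt and 4415 ± 69 TPM in Control (SD, n = 3 each). The 29 genes of the small subunit summed to 2141 ± 90, 2190 ± 39 and 2184 ± 47 TPM in the same groups. The large subunit sums of the APT1wt libraries, 4270 to 4310 TPM, lay below all Control sums, 4368 to 4495 TPM. Those of shAPT1 overlapped both, the small subunit sums of all groups overlapped, and no test was made. For each gene of the small subunit there was thus a mean of 73.8 ± 3.1 TPM in shAPT1, 75.5 ± 1.4 TPM in APT1wt and 75.3 ± 1.6 TPM in Control, and for each gene of the large subunit 88.9 ± 3.1, 87.7 ± 0.47 and 90.1 ± 1.4 TPM.

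The ratio of these means, large over small, was 1.194, 1.214 and 1.205 in the shAPT1 libraries, 1.144, 1.165 and 1.175 in APT1wt and 1.179, 1.198 and 1.213 in Control. The APT1wt libraries lay below all 3 Control libraries, with 1.175 and 1.179 as the nearest values, and below all 3 shAPT1 libraries, while shAPT1 and Control overlapped. No test was made of this ordering. In known structures MRPS18A and MRPS30 sit in the large subunit, and MRPS36 belongs to the 2-oxoglutarate dehydrogenase complex. With those 3 genes placed so, the ratio was 1.145 ± 0.0066 in shAPT1, 1.093 ± 0.012 in APT1wt and 1.127 ± 0.019 in Control, again lowest in APT1wt.

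**Figure D2:**
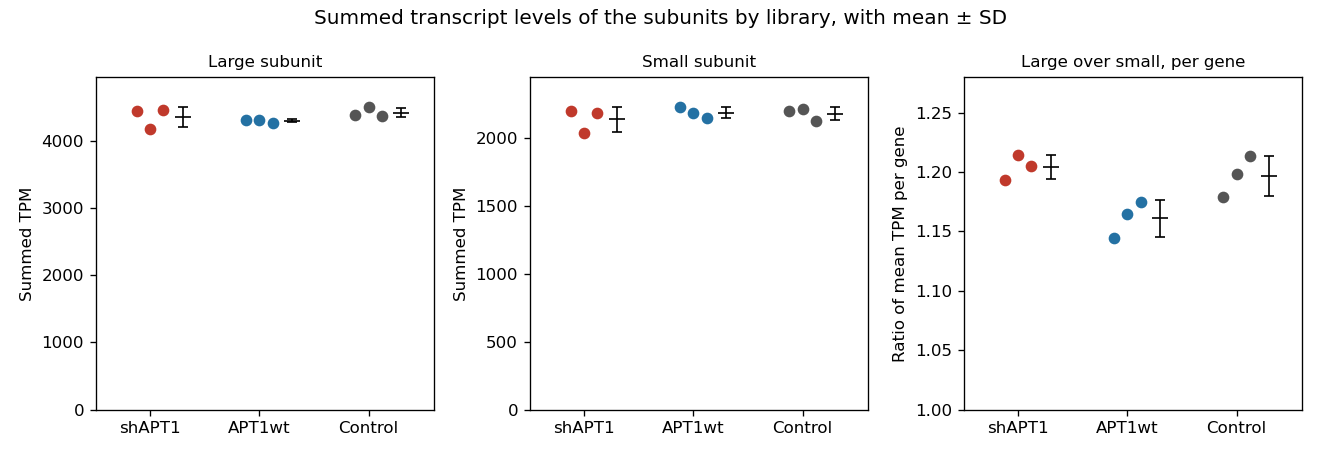
Summed TPM of the large subunit (left) and of the small subunit (middle), and the ratio of mean TPM per gene, large over small (right; axis starting at 1.0), with a point for each library and the mean ± SD of 3 libraries beside it. The small subunit sums of the groups overlap. The large subunit sums in APT1wt, 4270 to 4310 TPM, lie below those in Control, 4368 to 4495 TPM. The 3 APT1wt ratios, 1.144 to 1.175, lie below the Control ratios, 1.179 to 1.213.

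The share of members that differed from Control in the knockdown line was no larger than that of all genes. In shAPT1 against Control, 3 members were higher and 13 were lower at an adjusted p under 0.05 (edgeR over 15233 genes), or 3.85% and 16.7% of the 78, and 20.5% in all. Of all genes tested, 12.8% were higher and 11.6% were lower, 24.4% in all. In RNA from whole cultures, fewer cells of a kind and less RNA per cell cannot be told apart. The share of members that rose was below the background. The 13 lower members became 5 without the first Control library, 4 with a correction for gene length and 7 with the transcript length offset, with only these 2 groups in the fit or in the authors' deposited table, so no excess of lower members is read from the 16.7%. In the large subunit 2 members were higher and 7 lower of 49, and in the small subunit 1 was higher and 6 lower of 29. The median log2 fold change was −0.07 over the large subunit and 0.00 over the small one, beside −0.00 over all genes. TPM values of the groups did not overlap for 8 members that were higher and 11 that were lower, beside 20.7% and 10.4% of all genes tested (10.3% and 14.1% of the members).

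MRPL41 and MRPS2, both on chromosome 9, had the largest decreases. MRPL41, a protein of the large subunit with no bacterial counterpart, had 40.7, 48.4 and 59.4 TPM in shAPT1, against 67.5, 72.3 and 70.2 TPM in Control, so that all 3 knockdown libraries were below all Control libraries. Its log2 fold change was −0.56 ± 0.11 (SE; adjusted p = 0.0020, edgeR). MRPS2, which has a bacterial counterpart, had 121, 119 and 148 TPM in shAPT1 and 174, 184 and 184 TPM in Control, again with no overlap (log2 fold change −0.52 ± 0.07, adjusted p = 0.00017). Both were called in each of the 9 fits that left out 1 library.

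In the large subunit the other members that fell were MRPL33, MRPL53, MRPL37, MRPL12, MRPL11 and MRPL16. MRPL37 had 106, 106 and 119 TPM in shAPT1 and 124, 131 and 123 TPM in Control, with the groups close but apart, and its log2 fold change was −0.25 ± 0.06 (adjusted p = 0.0099). For MRPL33, with the TPM given above, it was −0.34 ± 0.08 (adjusted p = 0.0066). MRPL11, which forms the base of the stalk where translation factors land, had 90.7, 94.9 and 105 TPM in shAPT1, all below the 107, 110 and 109 TPM of Control (log2 fold change −0.24 ± 0.07, adjusted p = 0.021). MRPL12, the stalk protein that also binds the mitochondrial RNA polymerase, had 121, 130 and 154 TPM in shAPT1 and 145, 160 and 150 TPM in Control. These groups overlapped, and its call (−0.24 ± 0.08, adjusted p = 0.035) was kept in only 2 of the 9 fits that left out 1 library, with a highest adjusted p of 0.11. MRPL53 (−0.34 ± 0.12, adjusted p = 0.048) and MRPL16 (−0.23 ± 0.08, adjusted p = 0.041) were kept in 3 of those 9 fits each.

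In the small subunit MRPS24, MRPS25, MRPS12, MRPS11 and MRPS33 fell beside MRPS2. MRPS25, a protein found only in mitochondrial ribosomes, had 68.2, 66.3 and 66.9 TPM in shAPT1 and 72.6, 84.0 and 76.2 TPM in Control, with no overlap (log2 fold change −0.31 ± 0.08, adjusted p = 0.0099). Without the second Control library its adjusted p was 0.063. The value for MRPS24 was −0.34 ± 0.09 (adjusted p = 0.017), which was 0.067 without the first Control library, where the gene was highest. MRPS12, the protein of the decoding centre, had 57.9, 53.9 and 64.9 TPM in shAPT1 and 68.6, 71.8 and 72.6 TPM in Control (−0.31 ± 0.09, adjusted p = 0.021). MRPS11 had 41.6, 46.3 and 45.5 TPM in shAPT1 and 54.1, 52.1 and 53.2 TPM in Control (−0.25 ± 0.07, adjusted p = 0.023). MRPS33 (−0.25 ± 0.08, adjusted p = 0.045) had groups that overlapped and was kept in 2 of the 9 fits that left out 1 library.

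The 3 members that rose in shAPT1 were MRPL18, MRPL57 and MRPS31. MRPL18, whose bacterial counterpart binds 5S rRNA, had 119, 113 and 117 TPM in shAPT1 and 91.3, 93.1 and 93.1 TPM in Control. The groups stood well apart, and the log2 fold change was 0.26 ± 0.06 (adjusted p = 0.0059). MRPL57 had 32.5, 35.4 and 36.0 TPM in shAPT1 and 27.9, 26.1 and 26.5 TPM in Control (0.30 ± 0.08, adjusted p = 0.0099), and MRPS31 had 47.1, 39.3 and 37.0 TPM and 34.5, 32.3 and 29.2 TPM (0.30 ± 0.09, adjusted p = 0.027). Neither pair of groups overlapped. The call of MRPL57 was lost without the second Control library or the second shAPT1 library (highest adjusted p = 0.058), and that of MRPS31 in 4 of the 9 fits (highest adjusted p = 0.12).

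**Figure D3:**
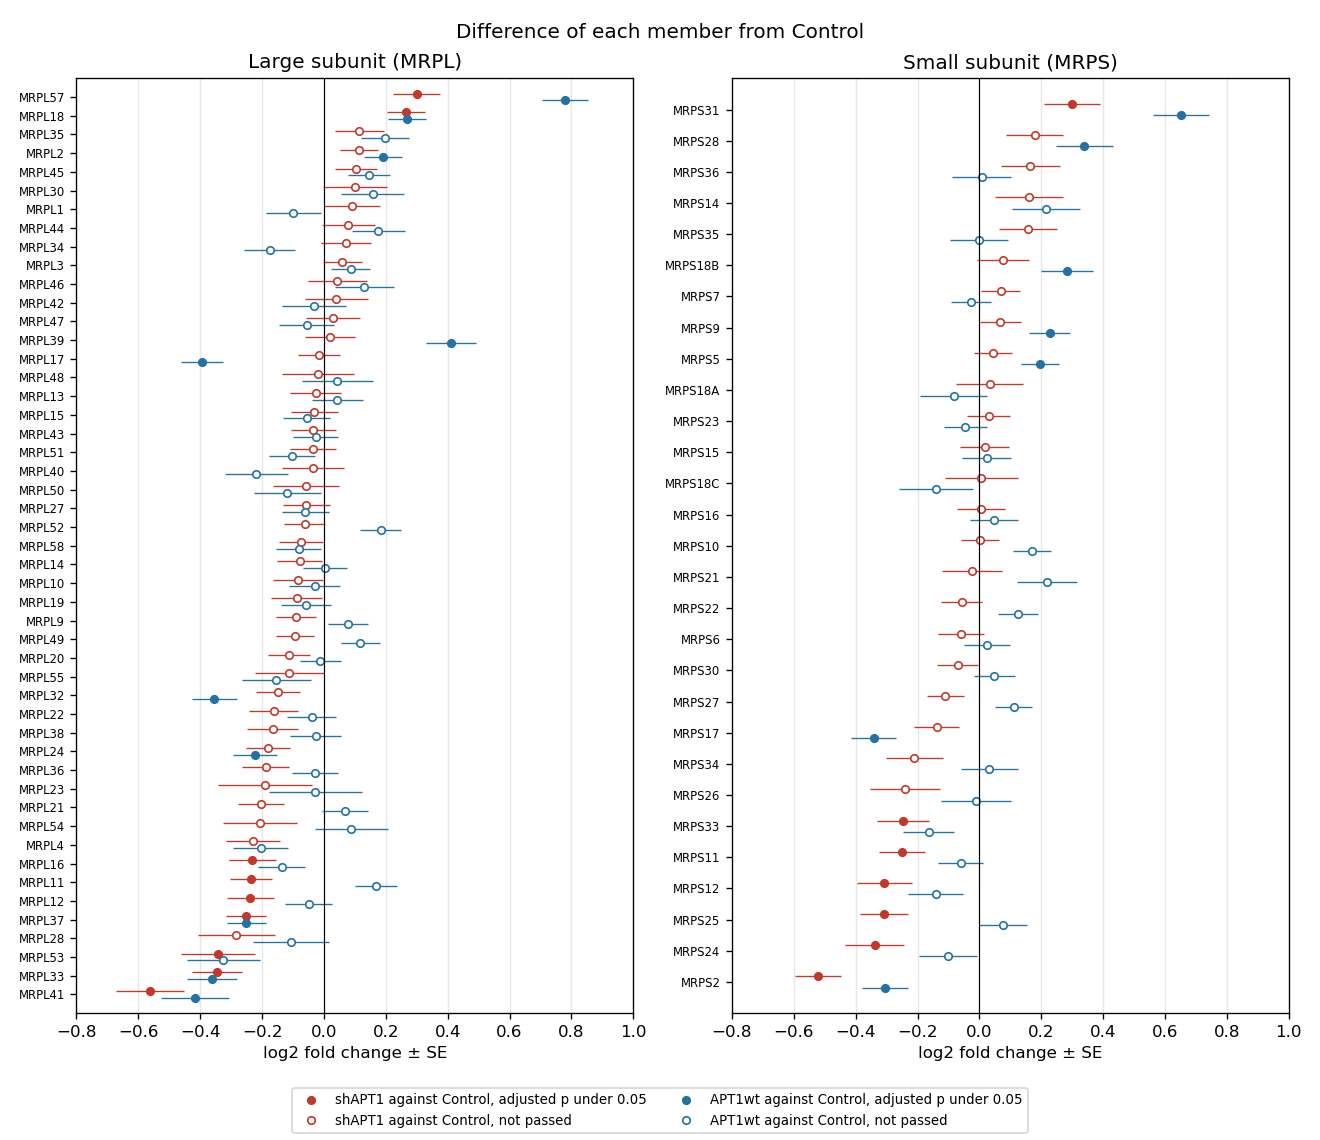
Log2 fold change of every member with its standard error in shAPT1 against Control (red) and in APT1wt against Control (blue), with the large subunit on the left and the small subunit on the right, ordered by the shAPT1 value; filled points passed an adjusted p of 0.05. In shAPT1, 3 members passed above 0 and 13 below it; in APT1wt, 9 passed above 0 and 8 below it; MRPL57 has the largest value, 0.78 in APT1wt.

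In the APT1wt line about as many members differed from Control, in both directions. In APT1wt against Control, 9 members were higher and 8 lower, or 11.5% and 10.3% of the 78 (21.8% in all), beside 11.8% and 11.6% of all genes tested (23.4% in all). These shares are near the background. In the large subunit 4 were higher and 6 lower, and in the small subunit 5 were higher and 2 lower; the median log2 fold change was −0.03 over the large and 0.02 over the small subunit, beside −0.00 over all genes. TPM values did not overlap for 17 members that were higher and 13 that were lower (21.8% and 16.7%), beside 16.3% and 18.7% of all genes tested.

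MRPL57 and MRPS31, both on chromosome 13, rose most. MRPL57 had 46.2, 45.3 and 45.6 TPM in APT1wt, against 27.9, 26.1 and 26.5 TPM in Control, a 1.72-fold difference (log2 fold change 0.78 ± 0.07, adjusted p = 4.9e-06). MRPS31 had 49.6, 48.4 and 49.3 TPM in APT1wt, against 34.5, 32.3 and 29.2 TPM in Control, a 1.57-fold difference (0.65 ± 0.09, adjusted p = 0.00013). These were the 2 called members with a difference past 1.5-fold in either comparison with Control. MRPL39, a large subunit protein related to threonyl-tRNA synthetases, had 63.4, 65.7 and 59.1 TPM in APT1wt and 48.6, 46.5 and 47.9 TPM in Control (0.41 ± 0.08, adjusted p = 0.0021), with no overlap. In Control and shAPT1 (55.6, 49.1 and 47.5 TPM) its levels overlapped.

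The other members higher in APT1wt were MRPS28, MRPS18B, MRPL18, MRPS9, MRPS5 and MRPL2, with log2 fold changes of 0.19 to 0.34. MRPL18 had 105, 115 and 110 TPM in APT1wt and 91.3, 93.1 and 93.1 TPM in Control (0.27 ± 0.06, adjusted p = 0.0057), a difference like that in shAPT1. MRPS28 had 49.7, 45.0 and 50.8 TPM in APT1wt and 39.4, 35.9 and 44.2 TPM in Control (0.34 ± 0.09, adjusted p = 0.016), where the nearest values of the groups, 45.0 and 44.2 TPM, almost met. MRPL2, a protein near the centre that forms peptide bonds, differed by 0.19 ± 0.06 (log2 fold change; adjusted p = 0.033) and was kept in 2 of the 9 fits that left out 1 library.

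Of the paralogues of a single bacterial protein, MRPS18B was higher in APT1wt, with 84.5, 74.2 and 68.5 TPM, against 63.0, 67.3 and 55.8 TPM in Control (0.28 ± 0.08, adjusted p = 0.025). This call was lost without Control library 2 or 3 or APT1wt library 1 or 3 (highest adjusted p = 0.14). MRPS18A and MRPS18C did not pass in any comparison. MRPS18C had 106, 62.7 and 67.8 TPM in shAPT1, 54.2, 49.6 and 59.8 TPM in APT1wt and 59.7, 69.4 and 58.8 TPM in Control, so that the first shAPT1 library stood far above the rest. MRPS18A had 44.9, 52.3 and 59.8 TPM in shAPT1, 50.3, 40.8 and 45.4 TPM in APT1wt and 50.1, 46.3 and 50.5 TPM in Control, with all groups overlapping.

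MRPL41 was lower in APT1wt too, with 45.9, 57.0 and 53.4 TPM, against 67.5, 72.3 and 70.2 TPM in Control (−0.42 ± 0.11, adjusted p = 0.013). Without the first APT1wt library its adjusted p was 0.059. MRPL17, whose bacterial counterpart lies near the exit of the peptide tunnel, had 127, 117 and 125 TPM in APT1wt and 160, 167 and 156 TPM in Control (−0.39 ± 0.07, adjusted p = 0.00088). The groups did not overlap, while in shAPT1 it had 145, 147 and 186 TPM, which overlapped Control (−0.02 ± 0.07, adjusted p = 0.89). MRPL33 fell as well (log2 fold change −0.36 ± 0.08, adjusted p = 0.0052), and MRPL32, which is matured by a protease of the inner membrane, had 64.7, 73.5 and 69.7 TPM in APT1wt and 85.4, 93.8 and 90.9 TPM in Control (−0.35 ± 0.07, adjusted p = 0.0027).

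MRPS17 had 21.7, 24.4 and 21.8 TPM in APT1wt and 27.8, 28.4 and 30.4 TPM in Control, with no overlap (−0.34 ± 0.07, adjusted p = 0.0036). MRPS2 had 135, 150 and 146 TPM in APT1wt, below the 174, 184 and 184 TPM of Control (−0.31 ± 0.07, adjusted p = 0.0085). MRPL37 had 106, 108 and 100 TPM in APT1wt (−0.25 ± 0.06, adjusted p = 0.011; 0.057 without the third APT1wt library). MRPL24 completed the list with −0.22 ± 0.07 (adjusted p = 0.034) and was kept in 4 of the 9 fits that left out 1 library.

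The comparisons of shAPT1 and APT1wt share their 3 Control libraries, so a Control library that differs moves both, and nothing is read from calls that coincide. Side by side, for the members past the threshold in each of them, the log2 fold changes in shAPT1 and APT1wt were −0.56 and −0.42 for MRPL41, −0.52 and −0.31 for MRPS2, −0.34 and −0.36 for MRPL33, −0.25 and −0.25 for MRPL37, 0.26 and 0.27 for MRPL18, 0.30 and 0.65 for MRPS31 and 0.30 and 0.78 for MRPL57.

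**Figure D4:**
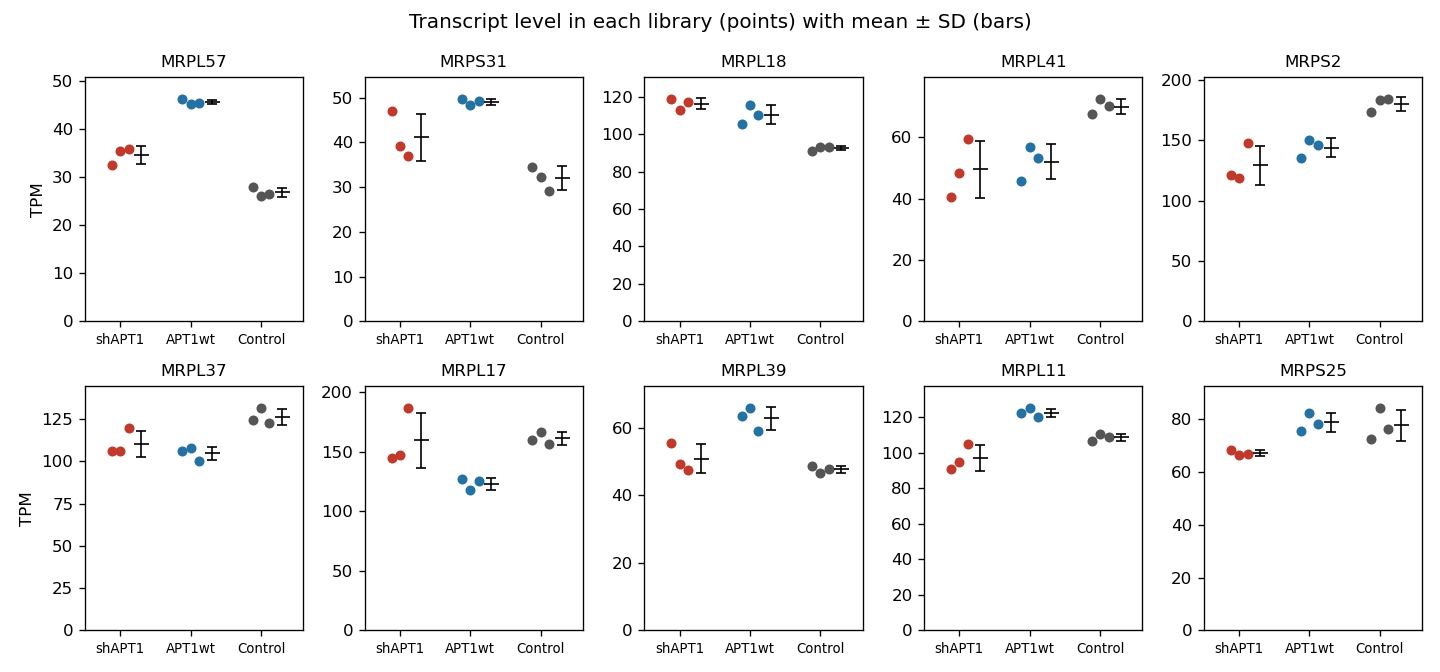
TPM of 10 members in each library, with axes starting at 0, in shAPT1, APT1wt and Control; bars give the mean ± SD of 3 libraries. MRPL57 and MRPS31 are higher in both lines and highest in APT1wt (45.7 ± 0.49 and 49.1 ± 0.65 TPM); MRPL41, MRPS2 and MRPL37 are lower in both lines; MRPL17 is low and MRPL39 high in APT1wt alone; MRPL11 and MRPS25 are low in shAPT1.

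Set directly against each other, the lines differed in 13 members. In shAPT1 against APT1wt, 3 were higher and 10 lower, or 3.85% and 12.8% of the 78 (16.7% in all), beside 12.7% and 12.4% of all genes tested (25.1% in all). TPM values did not overlap for 8 members that were higher and 10 that were lower (10.3% and 12.8%), beside 22.9% and 9.98% of all genes tested. All 3 higher ones were in the large subunit, where 6 were lower, and in the small subunit 4 were lower. The median log2 fold change was −0.06 over the large and −0.16 over the small subunit, beside 0.00 over all genes. MRPL57 (−0.48 ± 0.07, adjusted p = 0.00030), MRPL11 (−0.41 ± 0.07, adjusted p = 0.00060), MRPL39 (−0.39 ± 0.08, adjusted p = 0.0026), MRPS25 (−0.38 ± 0.08, adjusted p = 0.0024) and MRPS31 (−0.35 ± 0.09, adjusted p = 0.0092) were lower in shAPT1 and were called in each fit that left out 1 library. For MRPL11, with 122, 125 and 120 TPM in APT1wt, and for MRPS25, with 75.5, 82.4 and 78.2 TPM there, the 3 shAPT1 libraries lay below all APT1wt libraries.

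MRPL17 was the clearest member higher in shAPT1 than in APT1wt (0.38 ± 0.07, adjusted p = 0.0012), and MRPL34 (0.25 ± 0.08, adjusted p = 0.039) and MRPL32 (0.21 ± 0.07, adjusted p = 0.050, just under the threshold) passed narrowly. MRPL34 and MRPL32 were kept in 2 and in 1 of the 9 fits that left out 1 library. The remaining members that were lower in shAPT1, MRPL21, MRPL52, MRPS2, MRPS27 and MRPL49, had smaller differences, with adjusted p from 0.014 to 0.046. In all, 47 of the 78 members passed in none of the 3 comparisons.

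MRPL58, MRPS30 and MRPS36 did not pass against Control. MRPL58, a peptidyl-tRNA hydrolase that frees stalled chains, had 86.5 ± 4.5 TPM in shAPT1, 79.3 ± 5.6 TPM in APT1wt and 87.3 ± 4.7 TPM in Control. MRPS30, which structures place in the large subunit, had 59.6 ± 8.5, 58.2 ± 2.6 and 54.0 ± 4.2 TPM, and MRPS36 39.9 ± 7.7, 34.2 ± 2.6 and 35.9 ± 5.2 TPM in the same groups. MRPL15 starts 33193 bases beyond the end of LYPLA1. It had 64.4, 57.1 and 61.3 TPM in shAPT1, 60.6, 55.9 and 54.3 TPM in APT1wt and 61.8, 58.2 and 57.5 TPM in Control. Its log2 fold changes against Control were −0.03 ± 0.08 in shAPT1 and −0.06 ± 0.08 in APT1wt (adjusted p = 0.81 and 0.65), so the difference in LYPLA1 was not accompanied by a detectable one in this neighbour.

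The differences of many members went with those of the genes around them on the chromosome. For each member the median log2 fold change was taken over 50 tested genes upstream and 50 downstream, the nearest ones. Of the members called in shAPT1 against Control, 13 of 16 (81.2%) had the sign of this median, beside 73.7% of the 3712 genes called among all those with such neighbours, and in APT1wt against Control 16 of 17 (94.1%) did, beside 78.4% of 3566. Most called genes of any kind thus had the sign of their neighbours. Across the 78 members the log2 fold change and the neighbours' median had a Pearson r of 0.70 (Spearman rho 0.60) in shAPT1 and 0.77 (rho 0.59) in APT1wt. These correlations are over genes that share libraries, and neighbouring members share neighbours, so they are given as a description.

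Several members with large changes lay among neighbours whose median had the same sign. MRPL17 in APT1wt was an exception. Around MRPL57 (chr13:21176645-21179084, GRCh38) the median of the neighbours was 0.44 in shAPT1 and 0.88 in APT1wt, close to or above the gene's own 0.30 and 0.78. Around MRPS31 (chr13:40729135-40771173) it was 0.35 and 0.72, beside 0.30 and 0.65 for the gene. On chromosome 9 the neighbours of MRPL41 (chr9:137551199-137552555) had medians of −0.41 and −0.24 and those of MRPS2 (chr9:135499984-135504673) of −0.32 and −0.19. Around MRPL32 and MRPS17 on chromosome 7, both lower in APT1wt, the medians there were −0.29 and −0.30. MRPL18 on chromosome 6 had neighbours at 0.17 in shAPT1 and 0.37 in APT1wt. Whether DNA copy number differed among the groups was not tested.

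**Figure D5:**
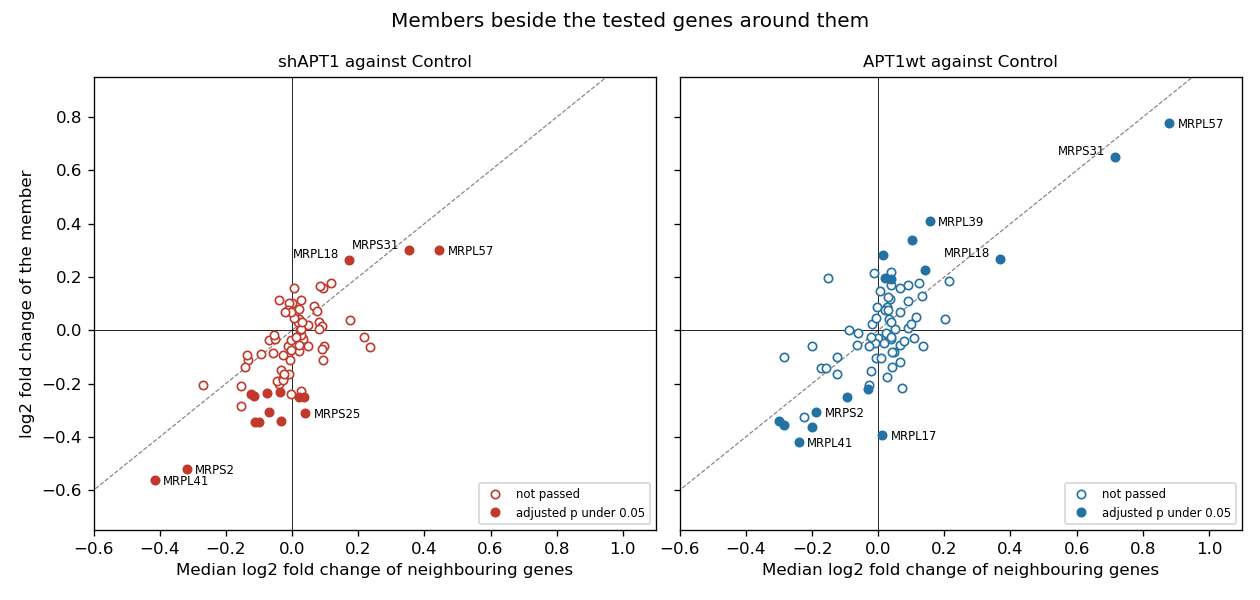
Log2 fold change of each member against the median log2 fold change of its neighbours, 50 tested genes to each side, for shAPT1 against Control (left) and APT1wt against Control (right); filled points passed an adjusted p of 0.05 and the dashed line marks equal values. MRPL57 and MRPS31 lie at the upper right in APT1wt (0.88 and 0.78, 0.72 and 0.65), MRPL41 at the lower left in shAPT1 (−0.41 and −0.56), and MRPL17 in APT1wt lies at −0.39 with neighbours at 0.01.

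With the neighbours' deviation removed in each library, 5 of the 16 calls in shAPT1 (31.2%) were kept, against 69.3% of the 3719 calls over all genes. These were MRPL37, MRPS2, MRPS11, MRPS24 and MRPS25. Another 4, MRPL13, MRPL4, MRPL52 and MRPS27, passed in shAPT1 only after the correction, which left 9 members lower and 0 higher. In APT1wt 3 of 17 were kept (17.6%), against 53.1% of 3568 over all genes, and these were MRPL17, MRPL39 and MRPS18B. Between the lines 6 of 13 were kept (46.2%, against 68.3% of 3829 over all genes), namely MRPL11, MRPL17, MRPL39, MRPL52, MRPS25 and MRPS27. MRPL57 then had log2 fold changes of −0.18 in shAPT1 and −0.12 in APT1wt, and MRPS31 of −0.09 and −0.10, so that both turned sign and none passed. MRPL41 was at −0.17 in both lines (adjusted p = 0.13 and 0.17). MRPL17 in APT1wt was as large as before, at −0.44 (adjusted p = 0.00028), and MRPS25 in shAPT1 at −0.34 (adjusted p = 0.0054). No member passed against Control in both lines after this correction. MRPL35 in APT1wt against Control, and MRPL40 and MRPS24 between the lines, passed only after it. The calls of members and of all genes were not matched for size of change or adjusted p. Nothing is therefore read from the difference between their kept shares.

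A check of gene length bore mainly on the knockdown. Gene length here is Salmon's effective transcript length, weighted by TPM within the gene and averaged over libraries, not the genomic span. With each library's smooth trend on gene length removed, 4 members were higher and 4 lower in shAPT1, in place of 3 and 13, and 7 of the 16 calls were kept (MRPL18, MRPL37, MRPL41, MRPL57, MRPS2, MRPS25 and MRPS31). In APT1wt 16 of the 17 calls were kept. MRPL37 and MRPS2 in shAPT1, MRPL17 and MRPL39 in APT1wt, and MRPL11, MRPL39 and MRPS25 between the lines passed under every other setting tried and in every fit that left out 1 library.

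By the gene starts of GENCODE 29, 27 members had a tested protein-coding partner on the other strand whose start lay within 1000 bases. MRPL57 faces SKA3, a kinetochore protein, 43 bases away. SKA3 had log2 fold changes of 0.52 ± 0.11 in shAPT1 and 1.05 ± 0.11 in APT1wt against Control (adjusted p = 0.0039 and 1.3e-05), both above those of MRPL57. MRPL18 faces TCP1, a subunit of the cytosolic chaperonin, at 63 bases, and TCP1 rose by 0.36 ± 0.06 and 0.38 ± 0.06 (adjusted p = 0.00088 and 0.00061), beside 0.26 and 0.27 for MRPL18. The medians of the neighbours around MRPL57 and MRPL18, given above, were also above 0 in both lines. A part of the facing promoters in these differences was not tested. MRPS11 and MRPL46 start 34 bases apart by the same annotation. In shAPT1 MRPS11 fell (log2 fold change −0.25), whereas MRPL46 had 45.3, 40.8 and 41.1 TPM in shAPT1 and 40.4, 42.3 and 34.0 TPM in Control (0.04 ± 0.10, adjusted p = 0.79). The gap between the starts of MRPS12 and SARS2, the mitochondrial seryl-tRNA synthetase, is −348 bases, that is, the genes overlap there, and SARS2 had 0.03 ± 0.10 in shAPT1 (adjusted p = 0.86) beside −0.31 for MRPS12.

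The transcript composition of the members was alike in the groups. They had 498 annotated transcripts, 278 of them protein_coding. Protein_coding transcripts held 87.3 ± 1.0% of the members' TPM in shAPT1, 87.3 ± 0.49% in APT1wt and 87.4 ± 0.73% in Control, and retained introns 5.23 ± 0.31%, 5.04 ± 0.20% and 5.08 ± 0.55%. Single genes departed from this. In 7 members less than 50% of the TPM came from protein_coding transcripts. MRPS11 had 94.8 ± 2.6% of its TPM outside them in shAPT1, 94.5 ± 2.6% in APT1wt and 94.4 ± 3.1% in Control, and its decrease in shAPT1 did not pass in protein_coding transcripts alone (adjusted p = 0.61). MRPS25 had 65.3 ± 4.7%, 63.5 ± 3.5% and 66.0 ± 0.17% outside them, and its decrease in shAPT1 was kept in protein_coding transcripts alone (−0.31, adjusted p = 0.028).

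Several members share exons with a gene on the other strand or have a pseudogene with reads, and no source used here says whether the counting used strand. MRPL49 overlaps FAU (1042 TPM over all libraries) and MRPS14 overlaps CACYBP (379 TPM). MRPL32 overlaps PSMA2 (149 TPM), MRPL11 overlaps PELI3 (7.21 TPM), MRPS25 overlaps NR2C2 (29.1 TPM), and MRPL37 overlaps SSBP3 (24.6 TPM) and CYB5RL (7.45 TPM). MRPL33 shares exons with BABAM2 (21.1 TPM) on its own strand. On their own strands, MRPS17 (26.4 TPM) shares exons with NIPSNAP2 (28.1 TPM) and MRPS16 with DNAJC9 (74.1 TPM). The pseudogenes MRPS31P4 and MRPS31P5 had 9.82 and 5.79 TPM beside 40.7 TPM for MRPS31, and MRPL45P2 had 7.70 TPM beside 62.7 TPM for MRPL45. The values of these members are uncertain to the extent that reads were split.

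Other parts of the mitochondrial translation system changed in single genes. Of all genes tested, 12.8% were higher and 11.6% lower in shAPT1 against Control, and 11.8% and 11.6% in APT1wt against Control. The lists here and below are short, and nothing is read from their counts. Of 6 mitochondrial ribosome proteins with other names, AURKAIP1 was lower in shAPT1 (57.6 ± 9.2 TPM, against 70.0 ± 6.9 TPM in Control; log2 fold change −0.36 ± 0.10, adjusted p = 0.019) and PTCD3 was higher in APT1wt (155 ± 3.2 TPM, against 131 ± 7.6 TPM; 0.25 ± 0.06, adjusted p = 0.0080), and no other passed against Control. Of 24 assembly and rRNA maturation factors, 0 were higher and 4 lower in shAPT1, and 2 were higher and 3 lower in APT1wt. The 4 were MTG1, GTPBP10 and MTG2, GTPases of ribosome assembly, and MRM3, an rRNA methyltransferase, with log2 fold changes of −0.38 to −0.23. GTPBP10 was lower in APT1wt as well, at 27.7 ± 1.3 TPM, against 36.5 ± 4.7 TPM in Control (−0.48 ± 0.10, adjusted p = 0.0041). Corrected for their neighbours, PTCD3 in APT1wt (0.35, adjusted p = 0.0023) and MTG1 in shAPT1 (−0.34, adjusted p = 0.011) kept their calls. The call of AURKAIP1 was lost, as were 3 of the 4 assembly factors in shAPT1 and all 5 in APT1wt, GTPBP10 among them (−0.19 in shAPT1 and −0.20 in APT1wt, adjusted p = 0.19 and 0.18).

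Of 15 translation factors, 3 were higher and 2 lower in shAPT1, and 4 were higher and 1 lower in APT1wt. MTIF3, an initiation factor, had 71.2 ± 7.9 TPM in shAPT1, 81.7 ± 4.7 TPM in APT1wt and 53.4 ± 2.8 TPM in Control (log2 fold changes 0.37 ± 0.09 and 0.57 ± 0.09, adjusted p = 0.0064 and 0.00026). MTRF1, a release factor, had 14.4 ± 1.8, 18.2 ± 0.35 and 12.1 ± 2.0 TPM in the same groups (0.87 ± 0.11 in APT1wt, adjusted p = 7.8e-05). Both lie on chromosome 13. Corrected for its neighbours, MTIF3 had −0.10 in shAPT1 (adjusted p = 0.36) and −0.28 in APT1wt (adjusted p = 0.017), so that it turned sign, and MTRF1 had 0.15 in APT1wt (adjusted p = 0.41). MTIF2, the other initiation factor, was lower in both lines, at 49.6 ± 4.3 and 45.3 ± 2.9 TPM, against 59.5 ± 3.1 TPM in Control (−0.30 ± 0.08 and −0.35 ± 0.08, adjusted p = 0.012 and 0.0044), or −0.29 and −0.18 after that correction (adjusted p = 0.0039 and 0.065). With it, 2 of the 5 calls in shAPT1, MTIF2 and TSFM, and 0 of the 5 in APT1wt were kept in their direction.

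Of 17 mitochondrial aminoacyl-tRNA synthetases, WARS2, for tryptophan, was higher in both lines, at 19.3 ± 0.96 TPM in shAPT1 and 22.3 ± 0.94 TPM in APT1wt, against 13.7 ± 1.7 TPM in Control (0.51 ± 0.09 and 0.80 ± 0.09, adjusted p = 0.00095 and 1.6e-05). CARS2, on chromosome 13, was the other one higher in APT1wt, and none was lower in either line. Corrected for their neighbours, WARS2 was still called in both lines (0.40 and 0.67, adjusted p = 0.0044 and 0.00011), whereas CARS2 had −0.28 in APT1wt (adjusted p = 0.070) and −0.43 in shAPT1 (adjusted p = 0.0072). Of 15 regulators of mitochondrial transcription and biogenesis, 0 were higher and 3 lower in shAPT1, and 2 were higher and 0 lower in APT1wt. PPARGC1B, a coactivator of mitochondrial biogenesis with low levels here, had 1.83 ± 0.12 TPM in shAPT1, 3.22 ± 0.17 TPM in APT1wt and 2.69 ± 0.39 TPM in Control (−0.50 ± 0.10 and 0.34 ± 0.09, adjusted p = 0.0020 and 0.016). ESRRA, its partner receptor, and PPRC1 were the other 2 lower in shAPT1 (−0.40 ± 0.10 and −0.21 ± 0.06, adjusted p = 0.0097 and 0.016), and ESRRA alone of these 3 lost its call with that correction (−0.28, adjusted p = 0.075). YY1 was called higher in APT1wt (0.37 ± 0.06, adjusted p = 0.00066), though on the TPM scale it had 89.2 ± 8.1 TPM there and 87.8 ± 5.3 TPM in Control.

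Of the 13 mRNAs that mitochondrial ribosomes translate, 0 were higher and 1 lower in shAPT1, and 0 were higher and 2 lower in APT1wt. MT-ND1, a subunit of complex I, was at 5968 ± 620 TPM in shAPT1, 6782 ± 582 TPM in APT1wt and 8642 ± 928 TPM in Control (−0.61 ± 0.11 and −0.34 ± 0.11, adjusted p = 0.00083 and 0.029). MT-ND2 was the other one lower in APT1wt (−0.32 ± 0.11, adjusted p = 0.048). Together these mRNAs took 14.1%, 15.3% and 11.9% of the TPM in the shAPT1 libraries, 12.6%, 11.7% and 12.6% in APT1wt and 15.4%, 12.4% and 13.5% in Control, so that the groups overlapped. Corrected for neighbours, here other mitochondrial genes, MT-ND1 in shAPT1 kept its call (−0.45, adjusted p = 3.4e-05, edgeR). Both calls in APT1wt were lost (adjusted p = 0.075 and 0.14). MT-ND3, MT-ND4 and MT-ATP8 then passed as higher in shAPT1 (adjusted p = 0.041, 0.049 and 0.012), and MT-ND5 in APT1wt (0.014).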

How the data were processed

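RNA from 9 libraries of MDA-MB-231 cells was sequenced; the submitters' processing notes name FastQC, Salmon, DESeq2 and the build GRCh38.p10, with no versions of the tools. The deposited files hold, for each of 199324 transcripts, the estimated counts of reads and the TPM that the authors obtained with Salmon, per the file headers, together with transcript lengths. A table of the whole series deposited by the authors holds a scaled gene-level signal whose scaling is not given in the sources used here. Transcripts carry gene identifiers, symbols and biotypes in their names, and values were summed per gene; positions come from GENCODE 29 (GRCh38).

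Gene sums of estimated counts were rounded to whole numbers and filtered with filterByExpr, which left 15233 genes. Counts were scaled by TMM and tested with edgeR 4.0.16 (R 4.3.3; glmQLFit and glmQLFTest) in 1 model of all 9 libraries with 3 contrasts. P-values were adjusted over all genes by Benjamini and Hochberg, with a threshold of 0.05. Fold changes are on estimated reads, while TPM also accounts for transcript length. A change in all mRNAs alike cannot be seen in such data. The fitting code was tested on simulated data. Alternatives were run with limma 3.58.1, DESeq2 1.42.0 and other settings; the scaled signal was used as log2(value + 1) with limma.

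The members and lists were chosen with earlier results of these data known. Members named with values are those past the threshold, by size (up to 5 each way per subunit), the 3 highest and 3 lowest per subunit, and members with special roles; list genes are up to 3 past the threshold. MRPL15 and the promoter partners were named after their values were seen.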

Additional observations from a re-analysis of the deposited data

How the results depend on the processing

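Of the single-member calls tested under other settings, 467 values kept direction and side of the threshold, 124 no longer passed and 7 turned sign. All 7 turned with the neighbouring gene correction, which gave MRPL57 −0.18 and MRPS31 −0.0855 in shAPT1 against Control, MRPL18 −0.082, MRPL57 −0.12 and MRPS31 −0.10 in APT1wt against Control, and MRPL32 −0.0621 and MRPS31 0.0111 in shAPT1 against APT1wt. For shAPT1 against Control, the 3 higher members were 0 with the neighbouring gene correction, and the 13 lower were 7 with the transcript length offset, 4 with the gene length correction, 7 with only the 2 groups in the fit and 7 in the deposited table. With the neighbouring gene correction 9 were lower. For APT1wt against Control, the 9 higher were 5 with the length offset, 3 with the neighbour correction and 5 in the deposited table, and the 8 lower were 1 with the neighbour correction. For shAPT1 against APT1wt, the 3 higher were 1 with DESeq2, with no filter, with the length offset, in protein_coding transcripts alone and with only 2 groups, and 0 in the deposited table; the 10 lower were 6 with library totals alone and 6 with the neighbour correction. The cause was not tested. The log2 ratio of the subunits, large over small, was 0.0091 in shAPT1 minus Control and −0.0434 in APT1wt minus Control. The mean of log2(TPM + 1) moved these values to −0.0273 and −0.0642, so the shAPT1 value changed sign.

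Leaving out 1 library, the counts ranged over 1 to 4 higher and 5 to 17 lower in shAPT1 against Control, 4 to 14 and 6 to 10 in APT1wt against Control, and 1 to 3 and 6 to 15 in shAPT1 against APT1wt; the log2 ratio over −0.0016 to 0.019, −0.0541 to −0.0328 and 0.0419 to 0.061. Lower members in shAPT1 were 5, 7 and 8 without Control libraries 1, 2 and 3 and 8 without shAPT1 library 2; higher ones were 1 without Control library 2 or shAPT1 library 2. Higher members in APT1wt were 4 without Control library 2 or APT1wt library 3, 5 without Control library 3 or APT1wt library 1 and 14 without shAPT1 library 1. The replicate block gave 3 higher and 12 lower in shAPT1, 9 and 8 in APT1wt, and 2 and 11 between the lines; samples with the same number correlated between −0.053 and 0.093, so the numbers do not pair them.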
